A study of Rattus norvegicus with 2 samples.

Results

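The lysosome and autophagy genes described here are 33 named genes, found by their symbols in the gene table of 1 aged and 1 young single-cell RNA library of rat meniscus, a fibrocartilage of the knee joint. All 33 were present among the 25399 genes of the files. They comprise 6 lysosomal membrane proteins, 10 cathepsins and legumain, 5 glycosidases, 5 proteins of lipid handling, 4 autophagy proteins and 3 regulators or lysosome-linked glycoproteins. The labels name the groups only as aged and young meniscus of Rattus norvegicus and give no strain, sex, age in numbers, treatment or number of animals. Both tissues were cut up, treated with protease and then with collagenase P, strained and sorted for viable cells before a droplet 3′ library was made. With 1 library per age, age cannot be told apart from animal, digestion or library. No p-value is therefore given, and every 95% interval covers counting error only.

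The lysosome is the acidic compartment in which a cell degrades proteins, glycans and lipids taken up from outside or delivered from its own cytoplasm. In autophagy, adaptor proteins and lipid-linked ubiquitin-like proteins enclose cytoplasmic cargo in a membrane that then fuses with the lysosome. Many lysosomal genes carry a short promoter element, built on TCACGTG and bound by the transcription factor TFEB and its relatives. Macrophages are known for a large lysosomal compartment, and fibroblasts and chondrocytes use cathepsins to turn over matrix.

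Promoters were looked at because TFEB is itself 1 of the 33 genes. RefSeq's table for the GRCr8 build held a window of 250 bases before to 50 bases after a start site for 29 of the 33 genes, and not for the other 4. The motif TCACGTG, searched on both strands, occurred in the window of 5 of these 29 genes, or 17.2%, against 3.43% of all 27457 windows of that length. The 5 genes were Lamp1, Mcoln1, Ctsd, Glb1 and Gaa. Its core CACGTG, which every TCACGTG contains, was found in 6 of 29, or 20.7%, against 6.65% of all windows, the sixth gene being Cd63. The longer palindrome TCACGTGA was found in 3 of 29 against 0.867% of all. The related TCACATGA was found in 4 of 29, in Cd63, Ctss, Gpnmb and Grn, against 1.13% of all. A match describes letters in a window and says nothing of binding. The 3 genes that hold the palindrome are Lamp1, Ctsd and Mcoln1, and 1 such stretch of each is shown 5′ to 3′ on the gene's strand, with TCACGTG in capitals and the closing a of the palindrome after it.
Lamp1, membrane glycoprotein, chr16:83075112-83075140, minus strand: agaccctcggcTCACGTGaccggcgggcg
Ctsd, aspartic protease, chr1:206968815-206968843, minus strand: tcgcccgcgtcTCACGTGacccgttgagg
Mcoln1, calcium channel, chr12:6358250-6358278, plus strand: aggcgccccgcTCACGTGaccgcggcgca
Counted from the start site, the first base of the motif lies at position -66 in Lamp1, -11 in Ctsd and 4 in Mcoln1.

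A cell stayed in when it showed 500 genes or more and no more than 20% mitochondrial unique molecular identifiers (UMIs, the molecule counts of the assay). This left 6085 of 8422 aged and 8773 of 9914 young barcodes, with median depths of 3686 and 3846 UMIs. The libraries shared 18 barcodes, 10 of them among kept cells. Classes were then set by UMI counts of marker genes, none of them among the 33. Macrophages held at least 3 C1qa UMIs, monocytes at least 2 Csf1r, neutrophils at least 10 S100a8, B cells at least 3 Cd79a and plasma cells at least 10 Jchain. Stromal cells held no Ptprc and at least 5 Dcn or 5 Chad UMIs. Cells meeting incompatible gates, 32 aged and 26 young, were left out, 3958 aged and 6577 young cells met no gate, and doublets were not called. CPM below means UMIs of a gene per 1000000 UMIs of a class, with no scaling by length because the assay counts transcript ends.

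The macrophage gate was checked against 8 macrophage markers, C1qa among them. All 8 were detected in both libraries, with a summed level of 23357 CPM aged and 17349 CPM young. Osteoclasts also express many of the 33 genes. Of 8 osteoclast markers 4 were detected in aged and 3 in young macrophages, with summed levels of 174 and 239 CPM. Acp5 made up most of this, at 132 and 208 CPM, with Nfatc1 at 17.2 and 27.3 CPM, Mmp9 at 20.9 CPM in the aged library and 0 in the young one, and Atp6v0d2 at 3 and 2 UMIs. Ocstamp, Dcstamp, Calcr and Oscar were at 0 in both, and the part of osteoclasts in the macrophage values was not tested. Haemoglobin took 3.90% of UMIs in aged and 4.21% in young macrophages. The monocyte class also held granule genes of immature myeloid cells, with Mpo, the myeloperoxidase gene, at 957 CPM aged and 752 CPM young. Elane was at 758 and 381 CPM there and Prtn3 at 418 and 214 CPM. The neutrophil genes Camp and S100a8 were lower in aged monocytes, at 124 against 323 CPM and 1264 against 3368 CPM. These genes were chosen after the values were seen, and the part of cell stage in the monocyte ratios below was not tested. The 5 aged and 2 young macrophages with 3 or 4 C1qa UMIs had 0.580% and 0.596% of their UMIs in the 33 genes, and the 20 aged and 55 young unclassed cells with 1 or 2 C1qa UMIs had 0.463% and 0.286%. In the young library more cells thus lay just under the gate than the 38 inside it. The B gate left only 22 aged cells beside 359 young ones, so each B value of the 33 genes is also given, where it bears on a statement, for a wider gate of at least 1 Cd79a UMI (655 aged and 3235 young cells), added after the data were seen.

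Macrophages devoted the largest share of their UMIs to the 33 genes in both libraries. The summed share was 1.93% (95% interval 1.90 to 1.96, 111 cells) in aged and 1.75% (1.71 to 1.78, 38 cells) in young macrophages. Stromal cells followed with 1.14% (519 cells) and 0.925% (186 cells), then monocytes with 0.851% (306 cells) and 0.888% (292 cells). Neutrophils held 0.605% (896 cells) and 0.492% (1263 cells). B cells held 0.267% and 0.316%, or 0.223% and 0.329% with the wider gate. Plasma cells were lowest, with 0.0798% (241 cells) and 0.102% (32 cells). By this pooled share the 6 classes stood in the same order in both libraries. The closest neighbours were young stromal cells and young monocytes, which differed by a log2 ratio of only 0.06 (0.04 to 0.08). By the median over cells these classes changed places. Young stromal cells (0.7497%) lay below young monocytes (0.9748%), while aged stromal cells lay above aged monocytes.

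The macrophage share exceeded the B cell share 7.22-fold in the aged library, for a log2 ratio of 2.85 (2.73 to 2.97), and 5.52-fold in the young one, for a log2 ratio of 2.47 (2.43 to 2.51). With the wider B gate the log2 ratios were 3.11 and 2.41. Over monocytes the macrophage share was 2.27-fold and 1.97-fold higher, and over plasma cells 24.2-fold and 17.1-fold. The distance was also seen cell by cell. The middle 50% of aged macrophages held between 1.40% and 2.78% of UMIs in these genes, and that of young macrophages between 1.12% and 2.62%. In B cells the same range ran from 0.209% to 0.447% aged and from 0.261% to 0.477% young.

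**Figure D1:**
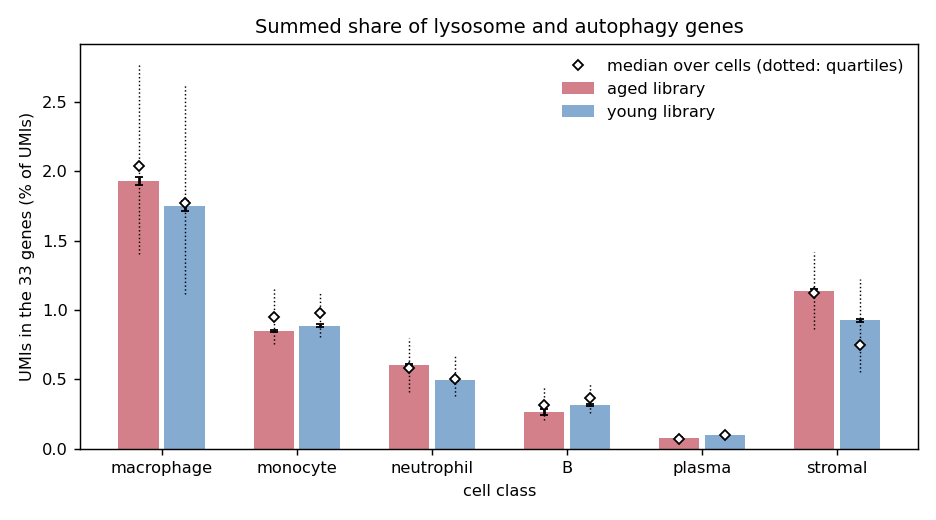
Summed share of UMIs in the 33 genes (y axis, percent of all UMIs of the class) in the 6 cell classes (x axis) of the aged and young library. Bars are pooled over cells with exact 95% intervals, diamonds are medians over cells and dotted lines run between the quartiles. Macrophages are highest and plasma cells lowest in both libraries, and the aged and young bars of a class lie close together.

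Between ages, the summed share of no class differed by as much as 1.5-fold. The log2 ratio of aged over young was 0.14 (0.10 to 0.18) in macrophages, -0.06 (-0.08 to -0.04) in monocytes and 0.30 (0.27 to 0.32) in neutrophils. It was 0.30 (0.28 to 0.32) in stromal cells and -0.36 (-0.46 to -0.26) in plasma cells. In B cells it was -0.24 (-0.37 to -0.12), and -0.56 (-0.59 to -0.53) with the wider gate. These values are per total UMI of the class. Scaling by TMM, which balances most genes between 2 libraries, added 0.15 in macrophages, 0.09 in monocytes, 0.40 in neutrophils, 0.19 in B cells and 1.02 in plasma cells and took away 0.07 in stromal cells, so that the plasma cell ratio turned to 0.66, the monocyte ratio to 0.03 and the neutrophil ratio grew to 0.69. Under that scaling neutrophils and plasma cells therefore passed 1.5-fold. So did macrophages (0.66) and B cells (-0.71) with loose gates. These took 1 UMI of C1qa, Csf1r, S100a8 or Cd79a and counted a cell that met several gates in each class. The neutrophil ratio fell to 0.030 with every UMI threshold doubled and was nearly as small with loose gates. Neutrophils with only 10 to 19 S100a8 UMIs, 47 aged and 51 young, had 0.969% and 0.357% of their UMIs in the listed genes. The part of these cells in the neutrophil ratio was not tested.

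Single genes were called higher or lower by size alone, at a ratio of at least 1.5-fold with at least 20 UMIs summed over both libraries. In macrophages 2 of the 31 measured genes were higher and 2 lower in the aged library, against 13.3% and 22% of all 5234 measured genes. In monocytes 4 of 33 were higher, against 10.7% of all genes, and 3 lower, against 17.3%. In neutrophils 8 of 32 were higher, against 8.25% of all genes, and 1 lower, against 39.8%. The median log2 ratio of the 33 genes that were measured was 0.06 in macrophages, -0.06 in monocytes and 0.14 in neutrophils, where that of all genes was -0.15, -0.10 and -0.43.

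In B cells 2 of 31 were higher, against 9.23% of all genes, and 12 lower, against 26.1%, with 0 higher and 15 lower of 33 at the wider gate, where 4.63% and 29.5% of all genes were. In plasma cells 7 of 29 were higher, against 9.82% of all genes, and 10 lower, against 67.4%. In stromal cells 10 of 32 were higher, against 20.6% of all genes, and 2 lower, against 16.3%. The medians were -0.39 in B cells, -0.42 in plasma cells and 0.26 in stromal cells, beside -0.15, -0.97 and 0.08 for all genes. In the medians of every class, genes without a UMI in 1 library entered at a bound of 3 counts. In B cells these included Npc1 (1.08) and Ctsk (1.25), both without an aged UMI. With TMM scaling the counts were 14 higher and 1 lower in neutrophils, where 17.5% and 20.4% of all genes were. They were 15 and 5 in plasma cells (26.5% and 23.3% of all genes), 5 and 2 in macrophages (17.1% and 15.6%) and 6 and 3 in monocytes (12.8% and 14.3%). In stromal cells they were 9 and 2 (18.1% and 18.3%) and in B cells 3 and 10 (14.7% and 19.3%).

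**Figure D2:**
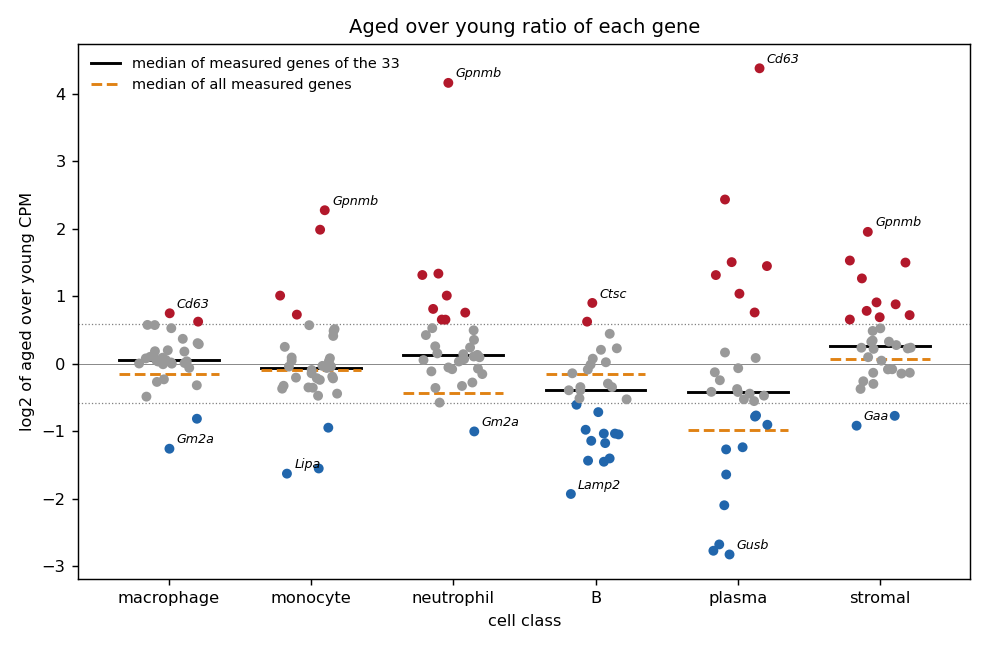
Log2 ratio of aged over young CPM (y axis) for each of the 33 genes with at least 20 summed UMIs and a UMI in both libraries, by cell class (x axis). Red points are at least 1.5-fold higher and blue points at least 1.5-fold lower in the aged library, grey points neither, and dotted lines mark 1.5-fold. The solid and dashed bars are the medians of the measured genes of the 33 and of all measured genes, those without a UMI in 1 library included. Points spread widest in plasma cells, from -2.83 to 4.38, and least in macrophages, from -1.26 to 0.75.

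Of the 31 genes that reached 50 CPM in some class, macrophages were highest for 16 in the aged library, against 12.8% of all genes at that level, and for 17 in the young library, against 15.3%. Stromal cells were highest for 9 aged, against 22% of all genes, and for 8 young, against 20%. For 27 of the 31 the highest class was the same in both libraries, as it was for 77.8% of the 3787 genes of the files that reached 50 CPM in both. The 27 were 15 in macrophages, 7 in stromal cells, 3 in monocytes and 2 in B cells. Npc1 and Mcoln1, a cholesterol transporter and a calcium channel of the lysosomal membrane, stayed under 50 CPM in every class.

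**Figure D3:**
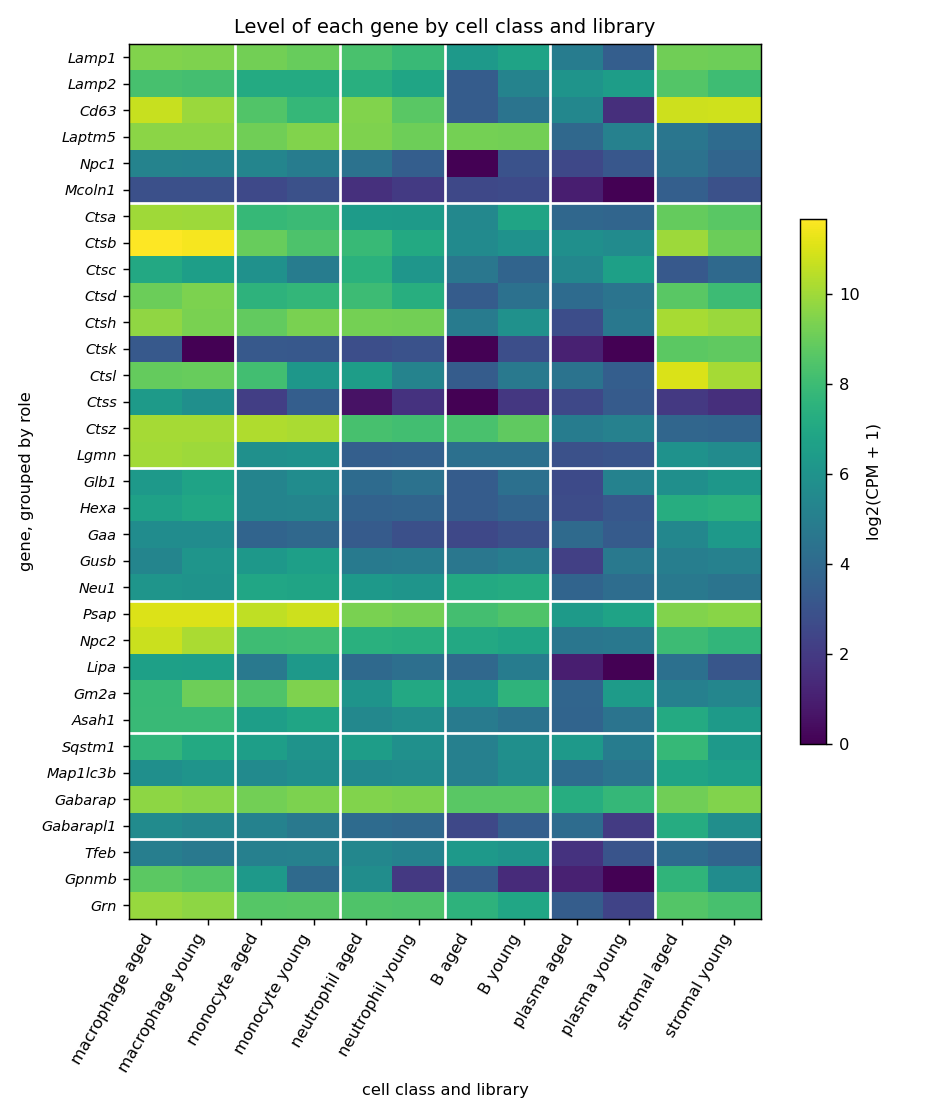
Level of the 33 genes (rows, grouped by role) in the 6 cell classes of the aged and young library (columns), as log2(CPM + 1) in colour. Macrophages hold the highest level of 16 genes aged and 17 young, stromal cells that of Ctsk, Ctsl and Cd63, and only 5 genes reach 50 CPM in plasma cells of either library.

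Among the membrane proteins, Lamp1, a heavily glycosylated coat protein of the lysosome, was at 706 CPM aged and 688 CPM young in macrophages. It was at 590 and 496 CPM in monocytes, 560 and 543 CPM in stromal cells, 323 and 240 CPM in neutrophils, 75.7 and 109 CPM in B cells (75.9 and 117 CPM with the wider gate) and 28.6 and 10.1 CPM in plasma cells. Macrophages led in both libraries, and their aged and young values did not differ beyond counting error (log2 ratio 0.04, -0.16 to 0.24). Lamp2, its close relative and a receptor of chaperone-mediated autophagy, was highest in stromal cells in the aged library (374 CPM, macrophages 310) and in macrophages in the young one (292 CPM, stromal cells 267). Laptm5, a membrane protein of haematopoietic cells, was at 539 to 799 CPM in macrophages, monocytes, neutrophils and B cells of both libraries, and at 457 and 551 CPM in B cells of the wider gate. It was at only 23.2 and 16.1 CPM in stromal cells and 14.2 and 34.3 CPM in plasma cells.

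Cd63, a tetraspanin of late endosomes and of neutrophil primary granules, was high in stromal cells and macrophages. Stromal cells held it at 1735 CPM aged and 1835 CPM young and macrophages at 1638 and 976 CPM, while B cells were at 9.46 and 21.4 CPM (12.3 and 18.5 CPM with the wider gate). In macrophages it was higher in the aged library by a log2 ratio of 0.75 (0.59 to 0.90). Monocytes held 360 and 218 CPM and neutrophils 700 and 414 CPM. Their ratios were almost the same as in macrophages, at 0.73 (0.61 to 0.84, and 0.48 with loose gates) and 0.76 (0.68 to 0.83). Stromal cells did not show it: their ratio was -0.08 (-0.14 to -0.03). In plasma cells 259 aged UMIs (41.9 CPM) stood against 2 young UMIs (2.02 CPM), for a log2 ratio of 4.38 (2.51 to 7.43). The 3 myeloid ratios were close to these values among cells without a single Dcn UMI, and in monocytes also without C1qa and in neutrophils also without C1qa or Csf1r: 0.72 in macrophages, 0.64 in monocytes and 0.86 in neutrophils. Plasma cells were not read in this way. Dcn was also higher in aged plasma cells, at 15.2 and 2.02 CPM, as was the haemoglobin gene Hba-a1, at 962 and 123 CPM. The 8 stromal markers together were at 49.5 and 45.4 CPM there. The part of free RNA in the plasma cell ratio was not tested.

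The neutrophil value moved beside the genes of early neutrophils. Mpo was at 371 CPM (aged) and 164 CPM (young) in neutrophils, Elane, the elastase gene, at 307 and 121 CPM and Prtn3, encoding proteinase 3, at 205 and 38.6 CPM. Genes of later granules were closer between the libraries, with Camp at 20496 and 18360 CPM and Mmp8 at 3264 and 2780 CPM. Of the other neutrophil markers, Cxcr2 was higher in the aged library, at 26.8 and 17.8 CPM, and Retnlg lower, at 1735 and 2272 CPM. All 8 neutrophil markers were detected in both, with similar summed levels of 221516 and 229396 CPM. The part of neutrophil stage in the Cd63 ratio was not tested. These 5 granule genes, Cxcr2 and Retnlg were chosen after the values were seen.

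The cathepsins and legumain, the proteases of the lysosome, made up the largest group, with 44.2% of the UMIs of the 33 genes in aged macrophages and 45.3% in young ones. In stromal cells they took 49.0% and 41.1%, in plasma cells only 24.2% and 25.9%. Ctsb, a cysteine cathepsin of broad specificity, stood at 3260 and 2876 CPM in macrophages, 1003 and 534 CPM in stromal cells, 490 and 343 CPM in monocytes and 235 and 134 CPM in neutrophils. Plasma cells were at 54.3 and 48.4 CPM and B cells at 47.3 and 60.1 CPM (44.2 and 55.7 CPM with the wider gate). It was therefore much the same in macrophages of both libraries (log2 ratio 0.18, 0.09 to 0.28) and higher in aged stromal cells (0.91, 0.82 to 1.00) and neutrophils (0.81, 0.68 to 0.94; 0.48 with the S100a8 threshold doubled).

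Lgmn, which cleaves after asparagine and activates other cathepsins, marked macrophages more sharply than any other protease that reached 500 CPM there. It was at 1059 CPM aged and 986 CPM young in macrophages and between 6.47 and 61.6 CPM in all other classes. At an equal depth of 1000 randomly kept UMIs per cell, 65.5% of aged and 63.2% of young macrophages still held a Lgmn UMI. In monocytes 8.17% and 7.88% did, and in B cells 1.95% of young cells and 0 of 22 aged cells, which allows up to 13.6%. Median depths were 5698 and 11091 UMIs in macrophages and 6764 and 8383 UMIs in B cells. Ctsa, a carboxypeptidase that also protects the galactosidase Glb1, was at 1034 and 994 CPM in macrophages, with stromal cells next at 478 and 410 CPM. Ctsd, the main aspartic protease, was at 533 and 665 CPM in macrophages and 408 and 253 CPM in stromal cells.

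Stromal cells led for the cathepsins of matrix turnover. Ctsk, the collagen-cleaving cathepsin best known from osteoclasts, was at 430 CPM aged and 455 CPM young in stromal cells and at no more than 8.62 CPM in every other class of both libraries. Macrophages held 7 Ctsk UMIs in the aged library and 0 in the young one. Thinned to 1000 UMIs, 31.2% of aged and 29.6% of young stromal cells held a Ctsk UMI, against 0 of 110 aged and 0 of 38 young macrophages, which allow up to 2.73% and 7.89%. B cells, at 0.836% young, were as low. Ctsl, an endopeptidase of the same family, was at 2041 and 1109 CPM in stromal cells and 476 and 497 CPM in macrophages. Ctsh, an aminopeptidase, was at 1137 and 965 CPM in stromal cells, 837 and 648 CPM in macrophages, 606 and 583 CPM in neutrophils and 461 and 640 CPM in monocytes.

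Ctsl differed between the libraries in monocytes and neutrophils. In monocytes it was at 281 CPM aged and 70.9 CPM young, for a log2 ratio of 1.99 (1.81 to 2.17), and in neutrophils at 90.6 and 35.9 CPM, a ratio of 1.33 (1.10 to 1.57). In macrophages the ratio was -0.06 (-0.30 to 0.18), and 0.93 with loose gates. Dcn, the decorin gene of stromal cells, was also higher in these aged cells, at 302 and 70.2 CPM in monocytes and at 215 and 78.6 CPM in neutrophils, while the stromal list as a whole was not. Of the 8 stromal markers in the files, 7 were detected in aged neutrophils and 8 in young ones, with summed levels of 426 and 713 CPM, and Col2a1 was at 0 in the aged ones. In monocytes the same counts were 7 and 8, the summed levels 632 and 960 CPM. Among the 269 aged and 269 young monocytes without a Dcn or C1qa UMI, Ctsl was still at 233 and 60.4 CPM. Neutrophils without Dcn, C1qa or Csf1r were 803 aged and 1138 young. In them Ctsl was at 34.5 and 20.3 CPM, a smaller log2 ratio of 0.76 (0.38 to 1.15). Per 1000 Dcn UMIs, all monocytes held 928 Ctsl UMIs aged and 1010 young, and all neutrophils 422 and 457. The part of stromal RNA in these values was not tested.

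Ctsz, a carboxypeptidase of myeloid and B cells, was highest in monocytes, at 1254 and 1177 CPM, with macrophages just below at 1090 and 1095 CPM. B cells held 317 and 452 CPM (202 and 492 CPM, and a ratio of -1.28, with the wider gate), and stromal cells only 13.3 and 12.4 CPM. Ctsc, the protease that activates neutrophil serine proteases, was at 173 CPM (aged) and 69.4 CPM (young) in neutrophils, for a log2 ratio of 1.31 (1.14 to 1.49). Monocytes gave 58.8 and 29.2 CPM, a ratio of 1.01 (0.70 to 1.32). In plasma cells Ctsc ran the other way, at 41.1 and 96.8 CPM, a ratio of -1.24 (-1.58 to -0.88). Ctss, the cathepsin of antigen-presenting cells, was low throughout, with 81.3 and 54.5 CPM in macrophages and at most 10.4 CPM elsewhere.

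**Figure D4:**
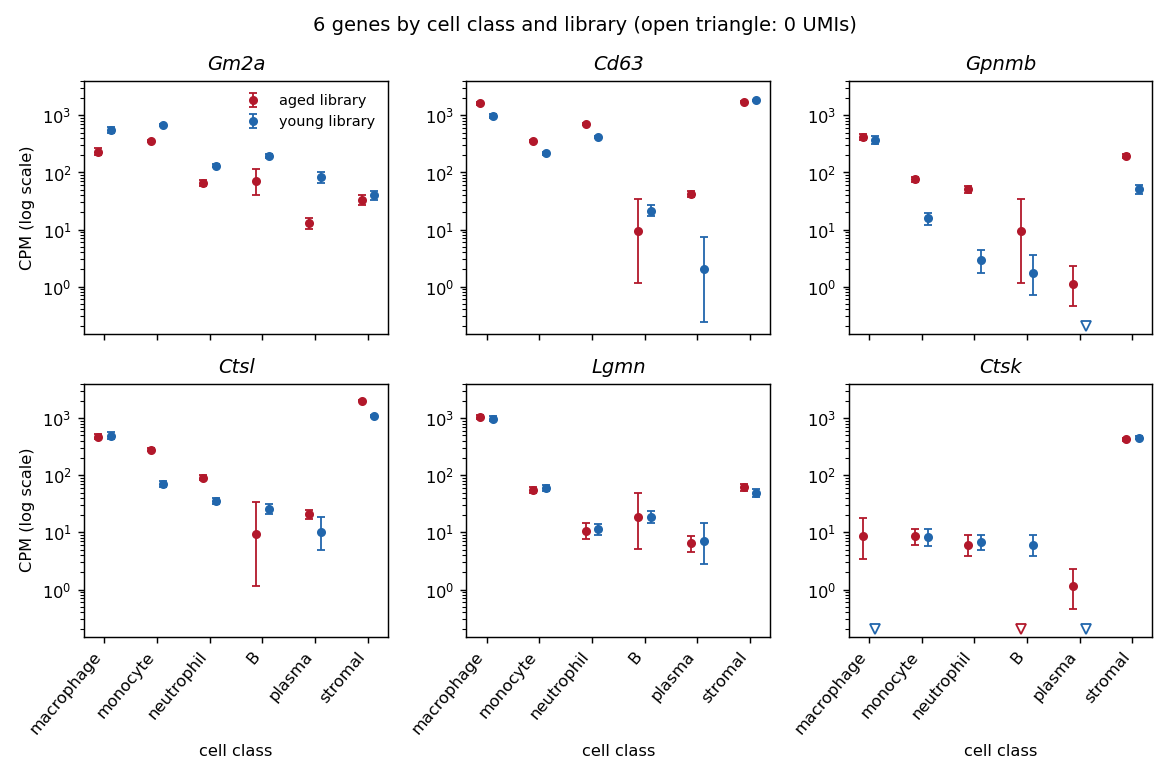
CPM on a log axis (y) of Gm2a, Cd63, Gpnmb, Ctsl, Lgmn and Ctsk in the 6 cell classes (x) of the aged and young library, with exact 95% counting intervals. Lgmn stands out in macrophages and Ctsk in stromal cells, and open triangles mark classes with 0 UMIs. Gm2a is lower in the aged library in every class, in stromal cells within counting error.

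The 5 glycosidases, which cut sugars from glycoproteins, glycolipids and glycosaminoglycans, were expressed at low levels and took 1.72% of the UMIs of the 33 genes in aged macrophages and 2.34% in young ones. Glb1, the beta-galactosidase measured in senescence stains, was at 76.3 CPM aged and 107 CPM young in macrophages and 54.8 and 71.0 CPM in stromal cells. Its ratio was below 0 in all 6 classes, and in B cells and plasma cells by 1.5-fold. Stromal cells also passed 1.5-fold when split by gate, at 14.4 and 52.8 CPM with Chad (-1.88, from 4 aged UMIs) and 58.6 and 94.7 CPM among those entered by Dcn (-0.69). In plasma cells it was at 5.18 and 35.3 CPM, for a log2 ratio of -2.77 (-3.51 to -2.04). In B cells it was at 9.46 and 18.6 CPM, from 2 aged UMIs, and at 8.32 and 18.7 CPM with the wider gate. Hexa, a subunit of beta-hexosaminidase, was highest in stromal cells (153 and 169 CPM) and was below 0 in ratio in all 6 classes, in none by 1.5-fold, the wider B gate included. The median ratio of all genes was itself below 0 in every class but stromal cells. Hexa lay above that median in monocytes (-0.04 against -0.10), neutrophils (-0.06 against -0.43) and plasma cells (-0.55 against -0.97). Glb1 lay above it in neutrophils (-0.36 against -0.43).

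Gusb, the beta-glucuronidase, was highest in monocytes, at 73.6 and 94.1 CPM. It was lower in aged macrophages, at 38.2 against 67.1 CPM (log2 ratio -0.81, -1.58 to -0.06), and in aged plasma cells, at 3.56 against 25.2 CPM (-2.83, -3.72 to -1.94). Gaa, the acid alpha-glucosidase that breaks down glycogen, was at 41.5 CPM (aged) and 78.4 CPM (young) in stromal cells, a ratio of -0.92 (-1.24 to -0.60). Neu1, a sialidase, was highest in B cells of both libraries, at 137 and 146 CPM, with monocytes next at 118 and 112 CPM. The wider B gate gave 158 and 157 CPM.

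Of the lipid-handling proteins, Psap, the precursor of the saposins that present sphingolipids to their hydrolases, was at 2123 and 2096 CPM in macrophages. Monocytes were at 1518 and 1761 CPM, stromal cells at 694 and 761.7 CPM, neutrophils at 648 and 583 CPM, B cells at 288 and 354 CPM and plasma cells at 80.9 and 108 CPM. Its order over the classes was the same in both libraries, and none of the 6 classes differed by 1.5-fold between ages. B cells of the wider gate did, at 214 and 363 CPM (log2 ratio -0.76), as did the stromal cells with Chad, at 410 and 653 CPM (-0.67). Npc2, which carries cholesterol out of the lysosome, was at 1716 and 1154 CPM in macrophages, for a log2 ratio of 0.57 (0.43 to 0.72), just under 1.5-fold. It was at 266 and 272 CPM in the next class, the monocytes. Lipa, the acid lipase, and Asah1, the acid ceramidase, were also highest in macrophages in both libraries, at 99.7 and 96.5 CPM and at 243 and 237 CPM. Lipa was lower in aged monocytes, at 24.9 against 77.1 CPM (-1.63, -1.94 to -1.32), and higher in aged stromal cells, at 18.6 against 7.73 CPM (1.26, 0.55 to 2.02).

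Gm2a, the activator protein that lifts the ganglioside GM2 out of the membrane for degradation, was the only one of the 33 genes called lower in the aged library in 5 of the 6 classes. It was at 231 CPM aged and 554 CPM young in macrophages, for a log2 ratio of -1.26 (-1.54 to -0.98), and at 355 and 685 CPM in monocytes (-0.95, -1.03 to -0.86). Neutrophils held 65.5 and 131 CPM (-1.003, -1.21 to -0.80) and plasma cells 12.9 and 82.7 CPM (-2.68, -3.14 to -2.21). The neutrophil ratio was under 1.5-fold in cells with 1000 genes or more and up to 10% mitochondrial UMIs (-0.48) and with DESeq2 scaling (-0.58). B cells held 70.9 and 194 CPM (-1.45, -2.30 to -0.72), and 54.7 and 190 CPM (-1.79, -1.97 to -1.62) with the wider gate. Only stromal cells, at 33.4 and 40.0 CPM, had a ratio under 1.5-fold (-0.26, -0.65 to 0.13), which became -0.72 in the stromal cells entered by Dcn alone and -2.79, from 1 aged UMI, in those with Chad. In cells without stromal or macrophage markers it was lower still or nearly the same: -1.22 in macrophages with no Dcn UMI and -0.91 in monocytes with no Dcn or C1qa UMI. Among neutrophils with no Dcn, C1qa or Csf1r UMI, Gm2a was at 29.8 and 98.9 CPM, a ratio of -1.73 (-2.06 to -1.42). Of all genes, 22% were called lower in macrophages, 17.3% in monocytes, 39.8% in neutrophils, 26.1% in B cells and 67.4% in plasma cells. How many of all genes were called lower in 5 classes was not counted.

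Of the autophagy genes, Gabarap, a ubiquitin-like protein of the autophagosome membrane, was high in every class but plasma cells. It was at 818 and 757 CPM in macrophages, 705 and 659 CPM in neutrophils, 585 and 667 CPM in monocytes, 570 and 701 CPM in stromal cells and 411 and 415 CPM in B cells (358 and 448 CPM with the wider gate). Stromal cells with under 5 Chad UMIs held 577 and 819 CPM, the young value above that of macrophages. Plasma cells held 151 and 218 CPM, which was still the most of any of the 33 genes there. Map1lc3b, the LC3 protein used as a marker of autophagosomes, was highest in stromal cells, at 112 and 95.5 CPM, and in no class but B differed by 1.5-fold. B cells held 33.1 and 50.4 CPM, from 7 aged UMIs, and 47.0 and 68.0 CPM with the wider gate, a ratio of -0.53.

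Sqstm1, the p62 adaptor that brings ubiquitin-tagged cargo to autophagosomes, was higher in the aged library in 4 classes. Stromal cells held 223 CPM aged and 77.3 CPM young, for a log2 ratio of 1.53 (1.31 to 1.75), and plasma cells 79.7 and 29.3 CPM (1.45, 0.91 to 2.04). Macrophages held 207 and 134 CPM (0.62, 0.20 to 1.06), neutrophils 90.6 and 57.6 CPM (0.65, 0.44 to 0.86) and monocytes, just under 1.5-fold, 92.3 and 62.1 CPM (0.57, 0.35 to 0.79). The macrophage ratio fell under 1.5-fold with doubled gate thresholds (0.52) and as a mean over cells (0.41). So did the neutrophil ratio, at 0.56 and 0.57, and it was 0.23 with loose gates. B cells ran the other way, at 33.1 and 54.4 CPM, and at 63.6 and 75.5 CPM with the wider gate, where the ratio was -0.25 (-0.42 to -0.08). Of all genes, 20.6% were called higher in stromal cells, 9.82% in plasma cells, 13.3% in macrophages and 8.25% in neutrophils. How many were called higher in 4 classes was not counted. Gabarapl1, a relative of Gabarap, was at 149 CPM (aged) and 52.8 CPM (young) in stromal cells (1.499, 1.24 to 1.77) and in plasma cells at 16.3 and 3.03 CPM, the latter from 3 UMIs.

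Tfeb, the regulator of lysosomal genes, did not follow the order of the other genes. It was highest in B cells, at 75.7 CPM aged and 65.6 CPM young (54.1 and 66.9 CPM with the wider gate), where the summed share of the 33 genes was second lowest. Neutrophils held 41.7 and 34.9 CPM, monocytes 33.1 and 34.5 CPM, macrophages 30.8 and 25.2 CPM, stromal cells 15.8 and 12.4 CPM and plasma cells 2.26 and 7.06 CPM. Macrophages were below B cells by a log2 ratio of -1.30 (-2.26 to -0.29) in the aged and -1.38 (-2.35 to -0.55) in the young library. Grn, which encodes the lysosomal progranulin, was at 947 and 825 CPM in macrophages, 390 and 401 CPM in monocytes, 371 and 307 CPM in stromal cells and 345 and 337 CPM in neutrophils.

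Gpnmb, a transmembrane glycoprotein of phagocytes under lysosomal load, had the largest aged over young ratio in 3 classes. Macrophages held 420 CPM aged and 369 CPM young (log2 ratio 0.19, -0.08 to 0.46). This ratio ran from -0.22 as a mean over cells to 1.12 with loose gates. Stromal cells held 195 and 50.4 CPM (1.95, 1.69 to 2.22), monocytes 75.7 and 15.7 CPM (2.27, 1.90 to 2.67) and neutrophils 51.4 and 2.87 CPM (4.16, 3.49 to 4.90). B cells held 9.46 CPM from 2 aged UMIs and 1.74 CPM from 7 young ones (1.19 and 1.01 CPM with the wider gate), and plasma cells 1.13 CPM from 7 aged UMIs and none from the young library. In neutrophils the count was 203 UMIs in 86 of 896 aged cells and 20 UMIs in 20 of 1263 young cells.

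Thinned to 1000 UMIs per cell, 4.38% of aged and 0.555% of young neutrophils held a Gpnmb UMI, and 18.04% and 3.23% of stromal cells. B cells gave 0 of 22 aged, which allows up to 13.6%, and 0 of 359 young, which allows up to 0.836%. The neutrophil ratio was 4.00 (3.23 to 4.88) among cells with no Dcn, C1qa or Csf1r UMI, at 40.4 CPM aged and 2.52 CPM young. Stromal cells of the aged library held 10.3 Gpnmb UMIs per 1000 Dcn UMIs and aged macrophages held 55.3 per 1000 C1qa UMIs. Aged neutrophils held 239 per 1000 Dcn UMIs and 29000 per 1000 C1qa UMIs, the latter from 7 C1qa UMIs. Young neutrophils held 36.6 per 1000 Dcn UMIs, and monocytes 250 aged and 223 young. Dcn and C1qa also set the gates, so differences of these values between classes were partly fixed by the gates and show no source. The part of free RNA in the Gpnmb values was not tested.

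Stromal cells were not alike in the 2 libraries, which bears on every stromal ratio and every ranking of stromal cells above. Of 519 aged stromal cells 37 reached 5 Chad UMIs, Chad being a cartilage matrix gene, and the other 482 entered by Dcn. Of 186 young stromal cells 114 reached the Chad gate and 72 entered by Dcn. The share of the 33 genes was 0.538% (0.511 to 0.566) aged and 0.600% (0.589 to 0.612) young in the Chad cells, and 1.20% (1.18 to 1.21) and 1.35% (1.33 to 1.37) in the others. Within both gates the aged share was thus the lower one, with log2 ratios of -0.16 (-0.24 to -0.08) and -0.17 (-0.20 to -0.15), against 0.30 for all stromal cells together. Aged stromal cells were also shallower, with a median of 5877 UMIs against 15476.

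Within the gates, 4 genes were higher and 9 lower of 27 measured in Chad cells, against 18.7% and 32.4% of all genes. In the others 5 were higher and 6 lower of 32, against 17.9% and 16.8% of all genes. Sqstm1 and Gabarapl1 were higher in aged cells of both gates. Sqstm1 was at 184 and 65.9 CPM in Chad cells (1.48, 0.97 to 1.97) and at 227 and 92.3 CPM in the others (1.30, 1.01 to 1.59). Gabarapl1 was at 169 and 51.6 CPM (1.71, 1.17 to 2.24) and at 147 and 54.3 CPM (1.44, 1.07 to 1.83). The cathepsins did not hold to the pooled values: Ctsl gave 0.50 (0.27 to 0.73) and 0.19 (0.12 to 0.26), Ctsb 0.44 and 0.48, and Ctsd -0.80 (-1.38 to -0.27) and 0.40 (0.25 to 0.57). Ctsk was at 108 and 120 CPM in Chad cells and at 460 and 894 CPM in the others, where the aged library was lower by a ratio of -0.96 (-1.07 to -0.84). Gpnmb stayed higher in the cells without Chad, at 211 and 109 CPM (0.96, 0.69 to 1.23), and had only 9 and 10 UMIs in Chad cells. Gaa was lower in the aged library in both gates, with ratios of -1.80 and -0.92.

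**Figure D5:**
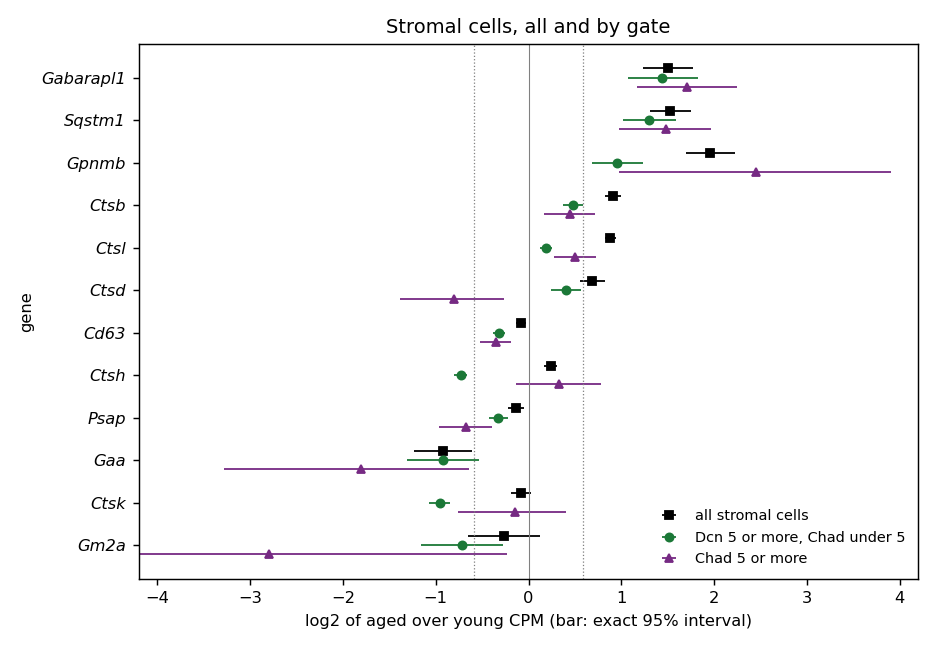
Log2 ratio of aged over young CPM (x axis) of 12 genes (y axis) in all stromal cells, in those entered by Dcn alone and in those with at least 5 Chad UMIs. Bars are exact 95% counting intervals, the bar of Gm2a in Chad cells runs past the left edge, and dotted lines mark 1.5-fold. Gabarapl1 and Sqstm1 lie to the right in all 3 sets, and Ctsb, Ctsl and Ctsd lie closer to 0, or below it, within the gates than in all cells.

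Macrophage values were also read without the cells that carried much haemoglobin. In the 103 aged and 33 young macrophages with under 1% haemoglobin UMIs, the share of the 33 genes was 2.00% and 1.85%. Of 31 measured genes 4 were higher, against 12.3% of all genes, and 3 lower, against 25.1%. Cd63 (0.79), Npc2 (0.61), Sqstm1 (0.70) and Ctss (0.81) were higher, and Gm2a (-1.32), Gusb (-0.74) and Glb1 (-0.59) lower.

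Beyond the 33 genes, a wider list of lysosome and autophagy genes was read, of which 98 were in the files, among them other hydrolases, the proton pump, membrane and transport proteins and the autophagy machinery. In macrophages 6 of 69 measured were higher and 5 lower, against 13.3% and 22% of all genes. The counts were 12 and 17 of 89 in monocytes (10.7% and 17.3% of all genes). They were 13 and 14 of 87 in neutrophils (8.25% and 39.8%) and 14 and 10 of 84 in stromal cells (20.6% and 16.3%). B cells gave 5 and 17 of 75 (9.23% and 26.1%) and plasma cells 4 and 38 of 62 (9.82% and 67.4%). Of the proton pump that acidifies the lysosome, 15 subunits were measured in macrophages and monocytes, of which 0 were higher and 0 lower, with a summed level of 4173 CPM aged and 3829 CPM young in macrophages and 3690 and 3686 CPM in monocytes. In plasma cells 10 of its 14 measured subunits were lower, where 67.4% of all genes were.

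Acp5, the tartrate-resistant acid phosphatase, was among the 2 lowest ratios in 4 classes: macrophages (132 and 208 CPM), monocytes (28.1 and 55.5 CPM), plasma cells (27.0 and 246 CPM) and stromal cells (33.1 and 75.7 CPM). The other genes at the lower end were Lamtor1, an anchor of nutrient signalling, in macrophages, Ostm1, partner of the lysosomal chloride exchanger, in monocytes, Atp6ap1 and Bnip3l in neutrophils, Scpep1 and Atp6v0d1 in B cells, Ifi30 in plasma cells and Wipi1 in stromal cells. At the upper end stood Mitf, a relative of Tfeb, in stromal cells, at 126 CPM aged and 26.6 CPM young (2.24, 1.89 to 2.61), and Vmp1, an autophagosome-forming membrane protein, in neutrophils, at 51.4 and 19.7 CPM (1.38, 1.06 to 1.71). Vmp1 was also at the upper end in plasma cells (0.61, 0.17 to 1.07), beside Map1lc3a (0.44, 0.11 to 0.80). Ctsg, a neutrophil granule protease, was at 390 and 229 CPM in neutrophils (0.77, 0.67 to 0.87). The remaining upper ratios were Aga (0.78) and Ppt1 (0.61) in macrophages, Tax1bp1 (0.70) and Rb1cc1 (0.64) in monocytes, Dnase2 (0.89) in stromal cells and Cstb (0.48) and Aga (0.47) in B cells, the B cell intervals including 0.

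Over the 12 class-by-library profiles, the genes whose log2(CPM + 1) ran most nearly parallel to the summed share were sought among 3756 genes of at least 50 CPM. The closest 5 outside the 33 were LOC691807 (Pearson r 0.978), Rnf13 (0.975), Bloc1s1 (0.973), Fth1 (0.973) and Plec (0.972). Fth1, the ferritin heavy chain, was at 18683 and 11418 CPM in macrophages and at 721 and 491 CPM in plasma cells. Rnf13, an endosomal and lysosomal ubiquitin ligase, was at 102 and 107 CPM in macrophages and at 9.38 and 16.1 CPM in plasma cells. The 12 profiles share 2 libraries, and these correlations are a description with no test.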

How the data were processed

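The labels describe 1 aged and 1 young library of rat meniscus. The deposited files give raw UMI counts for each gene in each barcode, which the authors made with Cell Ranger 6.1.1 per the file headers and the submitters' processing notes, and did not normalise. Which genome build and annotation they used is not given in the sources used here. For the wider B gate and the haemoglobin limit on macrophages, the choice followed a look at the data. Symbols were taken from the files and promoter windows from RefSeq (GRCr8).

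The members, lists, gates and tests were chosen with earlier results of these data known. Counts were summed per class and library. Ratios carry exact conditional binomial, levels exact Poisson and shares Clopper-Pearson 95% intervals. For a gene without UMIs in 1 library a bound was taken at 3 counts, and it could be called higher only in the other library. The total was 47228750 UMIs in the aged and 65051972 in the young library, which sets these intervals. Ratios were named for up to 5 called members per class and direction and for 2 genes of the wider list at each end (50 CPM, 100 summed counts). Other ratios in the text were chosen after their values were seen, among them those of Cd63 in neutrophils and Ctsl in stromal cells. Alternatives covered gates, cell filter, denominator, per-cell means, thinning, deep cells, count minimum and scaling (edgeR 4.0.16, DESeq2 1.42.0). The ratio and its interval were tested on simulated data. The work used R 4.3.3 and Python 3.11.15 with matplotlib 3.10.9, pandas 2.3.3, scipy 1.17.1 and numpy 2.4.6.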

Additional observations from a re-analysis of the deposited data

How the results depend on the processing

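With 1 library per age, leaving out a replicate leaves no comparison. No paired analysis was possible because each age has 1 library. Strict gates, with every UMI threshold doubled, left no aged B cells. Loose gates took cells with 1 UMI of C1qa, Csf1r, S100a8 or Cd79a. They left out no mixed cells and set no order of classes, so a cell that met several gates counted in each.

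Of 58 alternative values of the aged over young share ratio, 51 stayed under 1.5-fold. For the log2 ratio in macrophages the values that moved beyond counting error were 0.66 with loose gates, 0.25 with a cell filter of 1000 genes and 10% mitochondrial UMIs, 0.23 when thinned to 1000 UMIs, 0.29 with TMM and 0.29 with DESeq2 scaling. In monocytes they were 0.037 with loose and -0.082 with strict gates, -0.030 without mitochondrial, ribosomal, haemoglobin and immunoglobulin genes in the denominator, 0.018 as a mean over cells, 0.068 thinned, -0.13 without cells above 3 times the median UMIs, 0.028 with TMM and 0.038 with DESeq2. In neutrophils they were 0.040 with loose and 0.030 with strict gates, 0.38 with the stricter cell filter, 0.26 with the reduced denominator, 0.23 as a mean over cells, 0.19 thinned, 0.20 without deep cells, 0.69 with TMM and 0.72 with DESeq2. In B cells they were -0.71 with loose gates, -0.65 thinned, -0.083 without deep cells, -0.051 with TMM, -0.034 with DESeq2 and -0.56 with 1 Cd79a UMI. In plasma cells they were -0.16 with loose and -0.083 with strict gates, 0.019 thinned, 0.66 with TMM and 0.64 with DESeq2. In stromal cells they were 0.38 as a mean over cells, 0.40 thinned, 0.23 with TMM, 0.22 with DESeq2, -0.16 in Chad cells and -0.17 in cells entered by Dcn.

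The macrophage over B ratio moved in the aged library to 3.20 thinned, 2.63 without deep cells and 3.11 with 1 Cd79a UMI. In the young library it moved to 1.37 with loose gates, 2.37 with the stricter cell filter, 2.39 with the reduced denominator, 2.33 as a mean over cells, 2.32 thinned, 2.39 without deep cells, 2.41 with 1 Cd79a UMI and 2.55 in macrophages under 1% haemoglobin.

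Of 140 counts of genes called, 41 moved by over 1.5 times. The number higher in aged macrophages was 14 with loose and 1 with strict gates, 6 with the stricter cell filter, 5 with TMM or DESeq2, and 4 as a mean over cells, thinned, without deep cells, with S100a8 under 10 or under 1% haemoglobin. In monocytes it was 7 as a mean over cells or thinned, in neutrophils 5 with strict gates or as a mean over cells and 14 with TMM or DESeq2, and in plasma cells 2 thinned, 15 with TMM and 13 with DESeq2. In stromal cells it was 4 in Chad cells and 5 in cells entered by Dcn, and in B cells 1 as a mean over cells or without deep cells and 0 with 1 Cd79a UMI. The number lower was 6 thinned in B cells, 1 thinned in macrophages and 5 as a mean over cells or thinned in monocytes. In neutrophils it was 3 with loose and 5 with strict gates, 2 with the reduced denominator or with no count minimum and 0 with DESeq2. In plasma cells it was 0 thinned, 5 with TMM or DESeq2 and 6 at 50 summed counts. In stromal cells it was 1 with loose gates or thinned, 9 in Chad cells and 6 in cells entered by Dcn. Among these alternatives, the share of all genes called was counted only with TMM, with 1 Cd79a UMI and under 1% haemoglobin, and in both stromal gates. The other counts, those with loose gates included, have no such share beside them. They therefore cannot set the listed genes apart from all genes.

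Of 481 values of single genes, 8 turned the direction of a called ratio, all in B cells. They were Cd63 with loose gates (0.18), Grn with loose gates (-0.66), thinned (-0.46) and with 1 Cd79a UMI (-0.45), and Lamp2 with loose gates (0.25), as a mean over cells (0.36), thinned (1.33) and with 1 Cd79a UMI (0.17). Ratios under 1.5-fold changed sign too: Gm2a in stromal cells as a mean over cells (0.098) and thinned (0.68), Ctsl in macrophages under 7 alternatives (up to 0.93 with loose gates), and Gpnmb in macrophages as a mean over cells (-0.22) and thinned (-0.024). The cause of these changes was not tested. The 32 young plasma cells and 22 aged B cells left several genes with under 10 UMIs. Free RNA and doublets were not removed.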
